A study of Mus musculus with 10 samples.

Results

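Primitive red blood cells arise in the yolk sac and carry hemoglobin around the midgestation embryo before definitive red cells from the fetal liver replace them. Their hemoglobin includes embryonic alpha-like and beta-like globin chains. Globin chains bind heme, an iron-containing ring made by a chain of enzymes that begins and ends in the mitochondrion. A membrane skeleton of spectrin, ankyrin and protein 4.1 lies under the plasma membrane and is tied to the anion exchanger band 3 and to blood group proteins. The genes described here are 34 named erythroid genes of these processes, chosen by symbol. Of these, 33 were found among the 24302 genes of the table, and *Ahsp*, which encodes a chaperone of alpha-globin, was not analysed here. *Epb41* and *Epb42* were found under their older symbols.

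RNA of whole C57BL/6 mouse embryos at embryonic day (E) 11.5 was sequenced from 3 wildtype embryos, 3 heterozygous embryos (WWC2-/+) and 4 homozygous *Wwc2* KO embryos (WWC2-/-), 10 embryos in all. *Wwc2* encodes a scaffold protein of the Hippo pathway. According to the study's methods, floxed *Wwc2* was deleted by a *Cre* driven by the *Zp3* promoter, which is active in growing oocytes and was used to remove maternal as well as zygotic expression. The values used here are the authors' mean normalized counts, 1 per gene over all 10 embryos, and the genotypes were not compared here. No spread between embryos goes with such a mean, and the depth of each embryo is unknown. An order of levels below is therefore an order of these means, and none of its steps could be set against replicate error. In whole embryos, the number of red cells and the RNA per cell cannot be told apart. The paper describes hardly any blood-filled vessels in KO embryos, so these means pool embryos that may differ in blood. *Wwc2* itself had a mean of 2117 normalized counts, which does not check the genotypes because it pools them.

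The printed sequences show what lies upstream of the 2 globin genes with the highest means and of *Alas2*, the first enzyme of heme synthesis in red cells. They are the 250 bases before the RefSeq start site, from the GRCm38.p6 build, read 5′ to 3′ on the strand of the gene. *Hbb-y* lies on the minus strand (chr7:103853208-103853457), and *Hba-x* (chr11:32276350-32276599) and *Alas2* (chrX:150547167-150547416) lie on the plus strand. In the GENCODE annotation all 3 genes start inside the printed stretch, *Hba-x* at 32276400, *Alas2* at 150547375 and *Hbb-y* at 103853216, so that bases after these positions lie within the annotated gene. Capitals mark AGATAA, which GATA factors can bind, CACCC, which factors of the Klf family can bind, and TATAAA, each on either strand. None of the marked matches overlap. Only these exact letters were searched, and other forms of such sites were not looked for, so an unmarked stretch is not shown to lack them.
*Hbb-y*: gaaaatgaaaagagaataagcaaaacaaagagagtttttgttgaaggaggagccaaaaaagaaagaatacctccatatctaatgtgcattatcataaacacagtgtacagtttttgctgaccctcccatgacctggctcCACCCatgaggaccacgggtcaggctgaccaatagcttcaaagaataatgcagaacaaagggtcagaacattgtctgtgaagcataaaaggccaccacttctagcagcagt
*Hba-x*: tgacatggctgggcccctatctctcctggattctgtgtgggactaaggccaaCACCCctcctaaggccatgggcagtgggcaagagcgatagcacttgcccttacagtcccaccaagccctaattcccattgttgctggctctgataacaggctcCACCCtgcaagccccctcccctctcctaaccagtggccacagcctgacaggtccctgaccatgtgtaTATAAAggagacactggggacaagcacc
*Alas2*: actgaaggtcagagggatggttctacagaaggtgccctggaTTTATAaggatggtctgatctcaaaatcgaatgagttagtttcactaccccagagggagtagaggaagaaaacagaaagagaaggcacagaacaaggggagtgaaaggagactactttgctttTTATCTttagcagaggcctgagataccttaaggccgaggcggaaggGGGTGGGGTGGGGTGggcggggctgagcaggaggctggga
The stretch of *Hbb-y* held 1 CACCC, beginning at position -111 from the start site. That of *Hba-x* held CACCC at -198 and -95 and TATAAA at -28. That of *Alas2* held, all on the opposite strand, AGATAA at -86, 3 adjoining copies of CACCC at -40, -35 and -30, and TATAAA at -209. By the GENCODE start, the CACCC copies of *Alas2* and the CACCC at -198 and -95 and TATAAA of *Hba-x* lie at or after the gene's start.

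Promoter windows of 300 bases, from 250 before to 50 after the start site, were found for 26 of the 34 genes. AGATAA occurred in 11 of these 26 genes (42.3%) and in 12.7% of all 27025 genes with a window. The genes with it were *Alas2*, *Cpox*, *Epb42*, *Epor*, *Hemgn*, *Icam4*, *Kel*, *Rhd*, *Tal1*, *Tmcc2* and *Trim10*. CACCC occurred in 21 of the 26 (80.8%) and in 59.8% of all genes, and TATAAA in 5 (19.2%) and in 15.7%. AGATAA and CACCC stood together in 9 of the 26 genes, a count that was not made over all genes. As CACCC stood in most of the 26, this joint count says nothing of a pairing. Some genes had more than 1 window, which gives a motif more room. Counted by window, AGATAA occurred in 11 of 34 windows of the erythroid genes (32.4%) and in 11.2% of all windows. Such a match is a description of letters and not a bound site.

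The embryonic globin genes had the highest levels of the 33 genes and were among the most abundant transcripts of the embryo. The mean of *Hbb-y*, an embryonic beta-like chain (chr7:103851749-103853216), was 136056 normalized counts, second of all 24302 genes after the elongation factor gene *Eef1a1* with 210747. *Hba-x*, the embryonic alpha-like zeta chain (chr11:32276400-32278116), had 72665, ninth of all genes. *Hbb-bh1*, the other embryonic beta-like chain (chr7:103841637-103843164), had 31840 and rank 33. These means are not comparable between genes of unequal length, so the mean was divided by the length in kb of the longest annotated transcript. Per kb, *Hbb-y* had 214939 normalized counts, the highest value of the 19899 genes ranked, *Hba-x* had 90718 and rank 3, and *Hbb-bh1* had 51941 and rank 5. The *Hbb-y* level per kb was 4.14 times that of *Hbb-bh1*. Both beta-like chains together had 2.94 times the level of *Hba-x* per kb of transcript and 2.45 times per kb of coding sequence. No other alpha-like gene enters these ratios, and the values of the adult alpha-globin genes *Hba-a1* and *Hba-a2* are uncertain (below). The ratios are therefore not those of all beta-like to all alpha-like RNA. The value of *Hba-x* depends on the transcript model. With the transcript of the longest coding sequence *Hba-x* had 125501 per kb, and *Hbb-y* had 1.71 times its level in place of 2.37 times. The 3 globin genes took 0.941% of the summed mean normalized counts of all genes and 80.1% of the sum over the 33 erythroid genes.

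**Figure D1:**
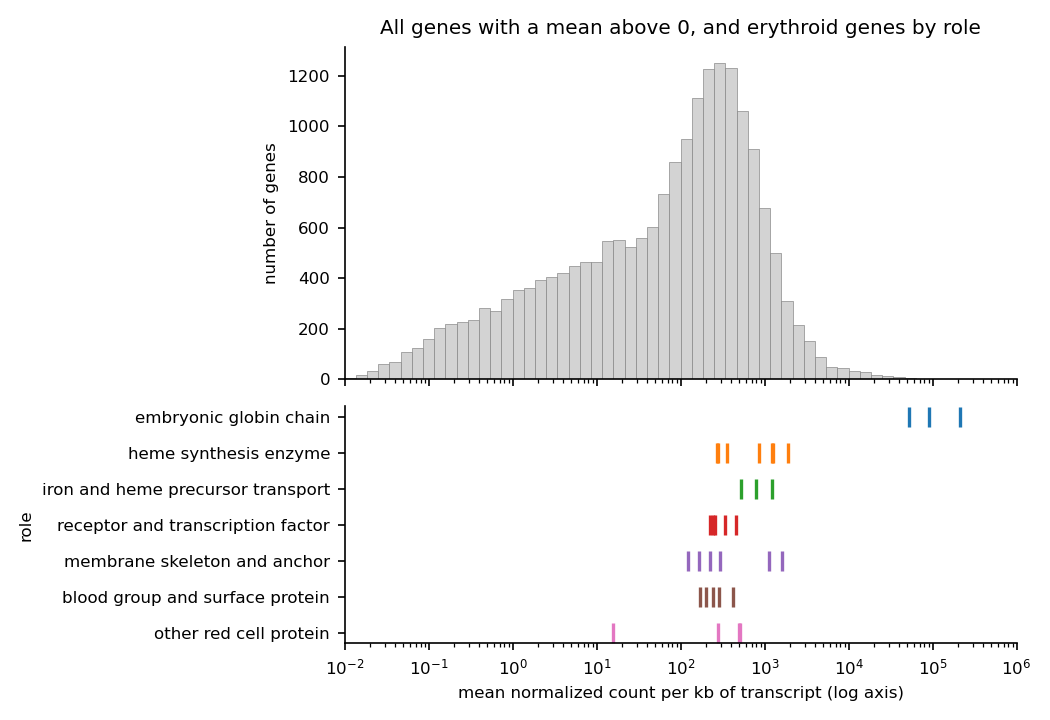
The upper panel counts the genes with a mean above 0 (y axis) by their mean normalized count per kb of transcript (x axis, log scale), and the lower panel marks each of the 33 erythroid genes as a line in the row of its role. The 3 globin genes stand at the far right, between 51941 and 214939, while the other roles lie in and to the right of the main peak, with *Tspo2* at 15.5 to its left.

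The adult globin genes were listed at or near 0. The adult alpha-globin gene *Hba-a1* and the adult beta-globin genes *Hbb-bs* and *Hbb-bt* were listed at 0, as were the rows *Hbb-b1* and *Hbb-b2*, which carry the same Ensembl identifier as *Hbb-bt*. *Hba-a2* had a mean of 0.106 normalized counts. Whether these values reflect the RNA is uncertain, because near-identical copies can share reads. Of all stretches of 80 bases (the read length) in the *Hba-a1* transcript, 61.1% also occurred in *Hba-a2*, and 79.8% of those of *Hba-a2* occurred in another gene. The share was 63.9% for *Hbb-bs*, mostly with *Hbb-bt*, and 56.3% for *Hbb-bt*. It was 0 for *Hbb-y*, *Hbb-bh1* and *Hba-x*. The remaining stretches of these adult genes occurred in no other gene. The part of shared reads or of repeated rows in the zeros was not tested, and no share of embryonic in total globin is given. *Hbq1b* and *Hbq1a*, alpha-like theta chains that share 29.8% and 27.4% of such stretches, had means of 111.9 and 4.31, and *Hbb-bh2* had 3.14. Per kb, *Hbq1b* had 162 and lay above the median of all genes, at percentile 58.3. It lay below the median among genes with a mean of at least 10 (percentile 46.1) and when the mean itself was ranked (39.9).

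All 7 heme synthesis enzymes of the set lay above the median of all genes, which was 97.9 normalized counts per kb of transcript. *Alas2*, the erythroid aminolevulinate synthase that starts the pathway (chrX:150547375-150570638), had a mean of 2597 and 1275 per kb. *Alad*, which joins 2 molecules of aminolevulinate, had the highest level of the enzymes with 1892 per kb (mean 3347). In the middle of the pathway, *Uros*, uroporphyrinogen III synthase, had 272 per kb (mean 596), and *Urod*, uroporphyrinogen decarboxylase, had 1225 (mean 1824). The level of *Uros* was the lowest of the enzymes. *Cpox*, coproporphyrinogen oxidase, had 858 per kb (mean 2657). The last mitochondrial steps were lower per kb, with 281 for *Ppox*, protoporphyrinogen oxidase (mean 1240), and 355 for *Fech*, ferrochelatase, which inserts the iron (mean 2336). The value of *Ppox* depends on the transcript model, and that of *Fech* on whether transcript or coding length is used. With the transcript of the longest coding sequence *Ppox* had 681 per kb, and per kb of coding sequence *Fech* had 1.25 times the level of *Alas2*, against 0.279 times per kb of transcript.

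*Alas2* stood above its housekeeping paralog. The level of *Alas1*, the synthase used outside red cells, was 302 per kb, so that *Alas2* had 4.22 times its level per kb of transcript and 2.77 times per kb of coding sequence. The ratio is over the RNA of the whole embryo, in which red cells are a part.

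Genes that bring iron and a heme precursor to the mitochondrion had levels between 525 and 1225 per kb. *Tfrc*, the transferrin receptor that takes up iron, had 1225 per kb (mean 5988). *Slc25a37*, mitoferrin 1, which carries iron into the mitochondrion, had 782 (mean 4634). *Slc25a38*, a mitochondrial glycine carrier, had 525 (mean 940). Both iron genes were higher than their paralogs. *Tfrc* had 30.1 times the level of *Tfr2*, a receptor of liver and erythroid cells, per kb of transcript (50.2 times per kb of coding sequence), and *Slc25a37* had 6.01 times that of *Slc25a28*, mitoferrin 2 (10.3 times per kb of coding sequence and 3.52 times with the transcript of the longest coding sequence). Of the stretches of 80 bases of *Slc25a37*, 7.40% occurred in another gene, the most of the 33 genes. For *Urod* and *Fech* the share was 1.49% and 1.32%, and for the other 30 genes it was 0.

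The receptor and the transcription factors of the red cell lineage lay between 226 and 453 per kb of transcript, and between 283 and 1131 per kb of coding sequence. *Lmo2*, a bridging protein of the erythroid transcription complex, had the highest level with 453 per kb (mean 773). *Klf1*, the erythroid Krüppel-like factor that activates globin genes, had 334 (mean 511). *Tal1*, a factor needed for all blood formation, had 257 (mean 1082), *Epor*, the erythropoietin receptor, had 244 (mean 430), and *Nfe2*, a subunit of the factor NF-E2, had 226 (mean 424). Their order depends on the length used, since *Klf1* had 1.30 times the level of *Tal1* per kb of transcript and 0.414 times per kb of coding sequence. Beside their paralogs, these factors did not all stand highest. *Lmo2* lay below *Lmo4* (0.307 times its level) and above *Lmo1* and *Lmo3* (1.82 and 9.53 times per kb of transcript, the latter 3.04 times per kb of coding sequence), and *Nfe2* below the broadly used *Nfe2l1* and *Nfe2l2* (0.190 and 0.446 times, the former 0.112 times with the transcript of the longest coding sequence) and above *Nfe2l3* (9.59 times). *Tal1* had 6.89 times the level of *Tal2* and 1.37 times that of *Lyl1*, a related factor of early blood cells, per kb of transcript, and 3.21 and 2.71 times per kb of coding sequence. *Klf1* had 2.14 times the level of *Klf2* and 2.01 times that of *Klf4*, the latter 1.30 times per kb of coding sequence.

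**Figure D2:**
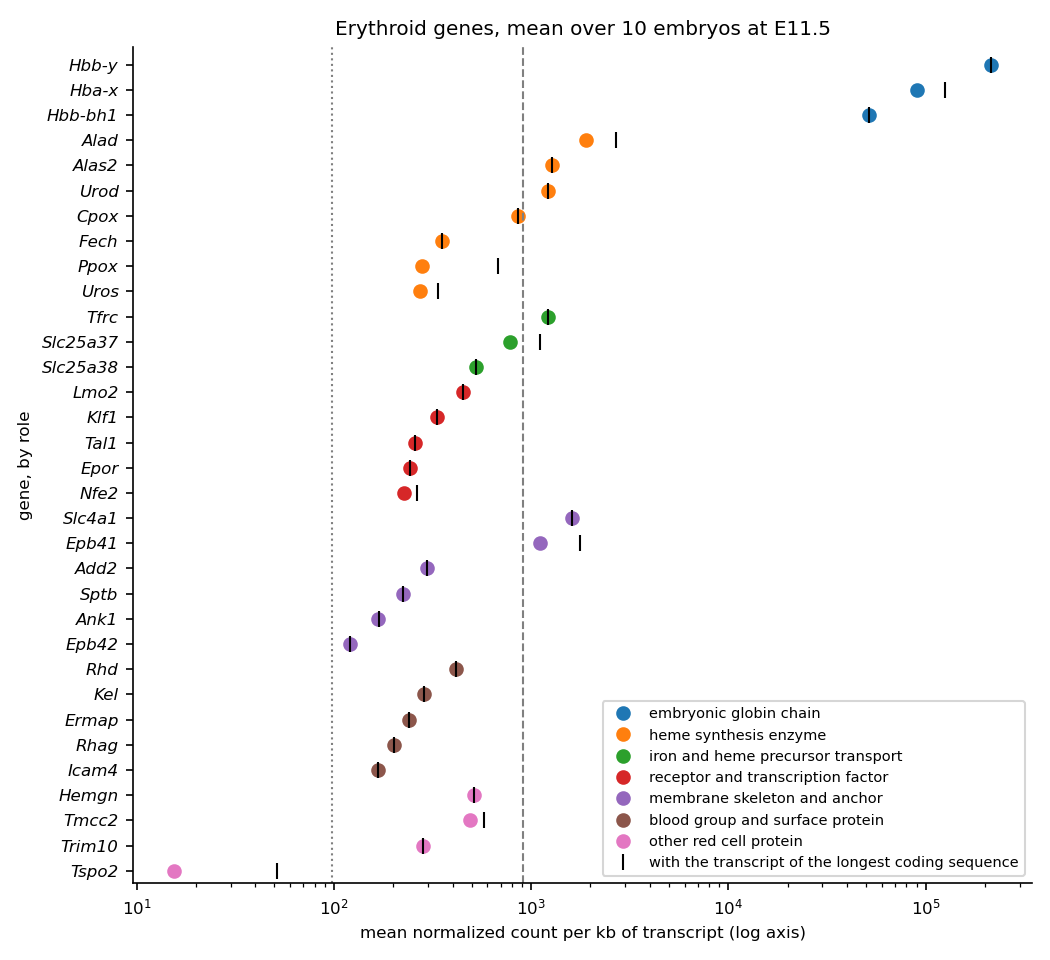
Mean normalized count per kb of the longest transcript (x axis, log scale) of the 33 erythroid genes (y axis), grouped and colored by role, as the authors' mean over 10 embryos with no error. Black ticks give the value with the transcript of the longest coding sequence, the dotted line is the median of all genes (97.9) and the dashed line the 90th percentile (911), and the largest shifts between dot and tick are those of *Tspo2* and *Ppox*.

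The genes of the membrane and its skeleton lay between 121 and 1616 per kb. *Slc4a1*, which encodes band 3, the anion exchanger and main anchor of the skeleton (chr11:102348824-102366203), had 1616 per kb (mean 7346). *Epb41*, protein 4.1, which joins spectrin and actin, had 1116 (mean 9267, the highest mean of the 33 genes outside the globins). The order of these 2 genes depends on the length, since *Epb41* was above *Slc4a1* with the transcript of the longest coding sequence (1770 and 1616 per kb) and per kb of coding sequence (3555 and 2636). *Add2*, beta-adducin, had 298 (mean 2442), *Sptb*, erythroid beta-spectrin, had 224 (mean 2324), *Ank1*, the ankyrin that links spectrin to band 3, had 167 (mean 1395), and *Epb42*, protein 4.2, had 121 (mean 498). The level of *Slc4a1* was 9.70 times that of *Ank1* and 7.23 times that of *Sptb*.

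The genes of the anchor and the skeleton differed from one another in their place among paralogs. *Slc4a1* stood above the other anion exchangers, with 3.11 times the level of *Slc4a2* and 10.5 times that of *Slc4a3*. Of the skeleton genes, *Sptb*, *Add2* and *Epb42* stood below their paralogs, which are used in many tissues. Per kb of transcript, *Epb41* stood above all of its own and *Ank1* between its own. *Sptb* had 0.176 times the level of *Sptbn1*. *Add2* had 0.164 times the level of *Add1* and 0.397 times that of *Add3* per kb of transcript, and 0.298 and 0.715 times per kb of coding sequence. *Ank1* lay below *Ank3* (0.632 times) and above *Ank2* (1.36 times), and the latter order turned when length was not used (0.798 times). *Epb42*, an inactive relative of the transglutaminases, had 0.182 times the level of *Tgm2*. *Epb41* had 4.03 times the level of *Epb41l1*, 1.16 times that of *Epb41l2* and 1.44 times that of *Epb41l3*, which became 6.29, 2.51 and 3.17 times per kb of coding sequence.

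**Figure D3:**
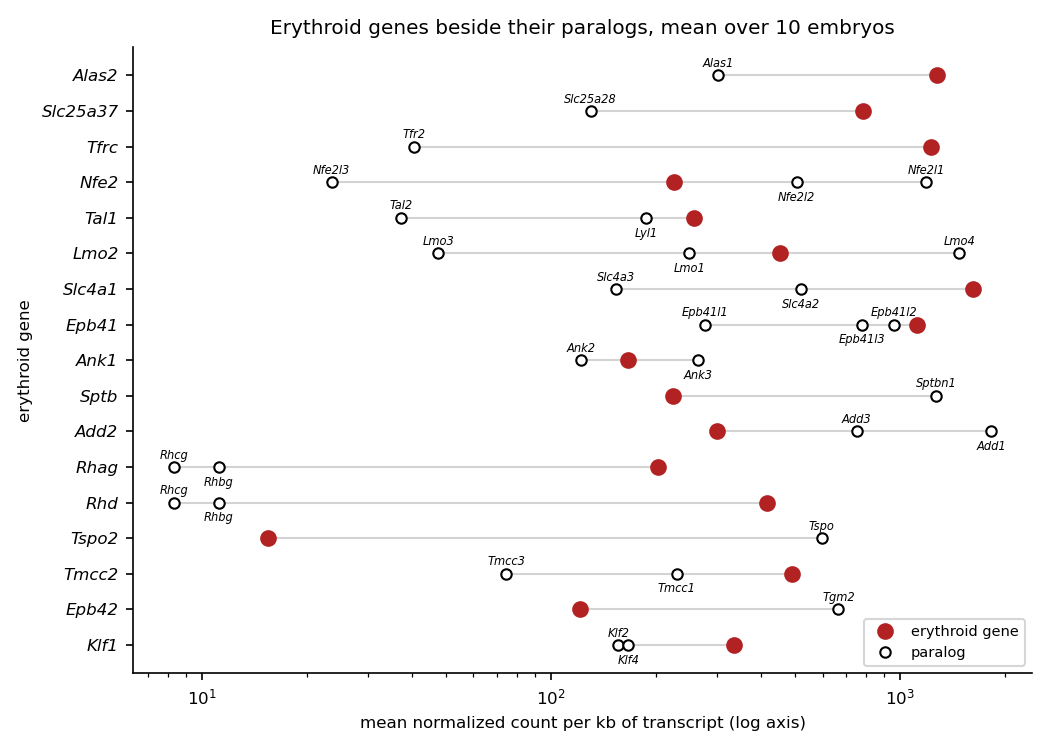
Mean normalized count per kb of transcript (x axis, log scale) of 17 erythroid genes (filled, named on the y axis) and of their paralogs (open, named beside each point), as the authors' means over 10 embryos with no error. *Rhd*, *Rhag*, *Tfrc*, *Slc4a1*, *Alas2*, *Slc25a37*, *Tal1*, *Epb41*, *Tmcc2* and *Klf1* lie to the right of all their paralogs shown. *Sptb*, *Add2*, *Epb42* and *Tspo2* lie to the left of all of theirs that are shown, and *Nfe2*, *Lmo2* and *Ank1* lie between theirs.

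Blood group and surface proteins had levels between 168 and 416 per kb. *Rhd*, the Rh blood group protein, had 416 (mean 629), and *Rhag*, the glycoprotein it is assembled with, had 202 (mean 473), 0.487 times the level of *Rhd*. *Kel*, the Kell blood group protein, had 287 (mean 726), *Ermap*, an erythroid membrane protein that carries the Scianna blood group, had 240 (mean 1092), and *Icam4*, an adhesion protein that carries the Landsteiner-Wiener blood group, had 168 (mean 173). The Rh genes showed a wide gap to their relatives outside red cells. *Rhbg* and *Rhcg*, ammonium transporters of kidney and other epithelia, had 11.2 and 8.33 per kb. *Rhd* had 37.2 and 49.9 times, and *Rhag* 18.1 and 24.3 times, their levels.

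The remaining genes lay between 15.5 and 511 per kb. *Hemgn*, hemogen, a nuclear protein of blood cells, had 511 per kb (mean 1208), *Tmcc2*, a transmembrane and coiled-coil protein, had 491 (mean 1967), and *Trim10*, a RING finger protein of terminal red cells, had 283 (mean 634). *Tspo2*, an erythroid relative of the translocator protein that binds cholesterol, had 15.5 per kb (mean 49.5) and was the only one of the 33 genes below the median of all genes per kb of the longest transcript. With the transcript of the longest coding sequence *Tspo2* had 51.8, and *Epb42* was then also below the median, at percentile 46.4. Among genes with a mean of at least 10, *Epb42*, *Ank1* and *Icam4* were below it as well (percentiles 39.6, 46.7 and 47.0), and *Icam4* when the mean itself was ranked (43.7). The level of *Tspo2* was 0.0260 times that of *Tspo* per kb of transcript and 0.104 times per kb of coding sequence. *Tmcc2* had 2.14 times the level of *Tmcc1* and 6.59 times that of *Tmcc3*, which became 1.44 and 3.22 times per kb of coding sequence.

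Against all genes, the erythroid set as a whole lay moderately high. The median of the 33 genes was 355 per kb, against 97.9 for all genes with a mean above 0, and their median percentile was 74.0. The 9 genes at or above the 90th percentile were the 3 globin genes, *Alad*, *Alas2*, *Urod*, *Tfrc*, *Slc4a1* and *Epb41*. Without the globin genes, the other 30 genes took 0.233% of the summed mean normalized counts. Transcripts of the whole embryo make up these sums, so the percentages describe the embryo and not the red cell.

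Other genes of the same processes, outside the 34, had levels from below those of the 33 genes to above those of all but the globin genes. Of 9 further genes of heme and iron handling, 4 lay at or above the 90th percentile. Among them were the ferritin chains *Ftl1* and *Fth1*, which store iron, with 30288 and 8903 per kb, and the heme oxygenase *Hmox1* with 1084. The transporter *Flvcr1* lay lowest with 95.5. Of 12 further genes of the red cell membrane, the glucose transporter *Slc2a1* and *Add1* were highest with 6009 and 1824 per kb, followed by the glycophorin *Gypc* with 513, and the median was 260. The Kell-associated *Xk* was lowest with 74.7. Of 12 further regulators, *Ldb1*, the partner of *Lmo2*, was highest with 2059 per kb, followed by *Zfpm1* with 405, *Bcl11a* with 376 and *Gata2* with 281. *Gata1*, the main GATA factor of red cells, had 187, which is 0.559 times the level of *Klf1*. *Epo*, the hormone that binds *Epor*, had a mean of 8.59 normalized counts.

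Markers of other cell types were present in the RNA as well. The 6 endothelial markers had levels between 185 and 1160 per kb, with *Cdh5* highest, followed by *Pecam1* with 830, *Kdr* with 621 and *Tie1* with 502. The 6 megakaryocyte and platelet markers lay between 38.2 and 1316, with *Pf4* highest, followed by *Ppbp* with 495, *Itga2b* with 254 and *Gp9* with 124. The 6 macrophage and myeloid markers lay between 7.06 and 215, and of them *Csf1r* had 215 per kb, *Lyz2* 203, *Mpo* 77.3 and *Cx3cr1* 57.4. The 6 liver markers lay between 44.1 and 11751, and of them *Afp* had 11751 per kb, *Apoa1* 2267, *Alb* 1698 and *Ttr* 1531. No marker of these 4 lists was at 0. Several of the erythroid genes are also used by these cells, such as *Tal1* and *Lmo2* in endothelium and *Nfe2* in megakaryocytes, and the part of each cell type in their levels was not tested.

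**Figure D4:**
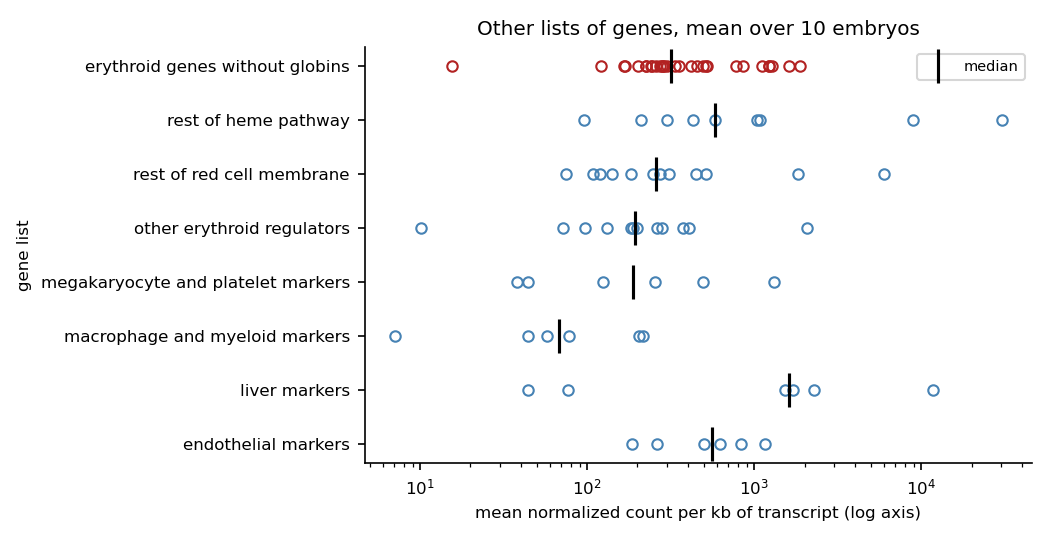
Mean normalized count per kb of transcript (x axis, log scale) of the genes of each list (rows), 1 circle per gene and a black line at the median, as the authors' means over 10 embryos with no error. The erythroid genes without globins (red) have a median of 316, the rest of the heme pathway 585, the rest of the red cell membrane 260 and the macrophage and myeloid markers 67.4.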

How the data were processed

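The authors isolated total RNA of whole embryos, selected poly(A) RNA, made NEBNext Ultra libraries (directional, per the paper's methods) and sequenced reads of 80 bases. The submitters' processing notes name bcl2fastq, FastQC, Trimmomatic 0.33, HISAT2, SAMtools, HTSeq and DESeq2, with the mm10 build. The 2 deposited tables, KO versus wildtype and heterozygous versus wildtype, hold the mean normalized count of each gene, a signal that the authors made by dividing counts by DESeq2 size factors and averaging over the 10 embryos. Both tables gave the same mean for all 24302 genes (relative tolerance 1e-06). The means sum to 25560890. The other columns are the authors' own comparisons (log2 fold change, its standard error, statistic, p-values and a call) and were not used here, so the genotypes were not compared and no test was run.

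Means were divided by the length of the longest transcript in GENCODE M21 of GRCm38, the assembly behind mm10. Of the 20665 genes with a mean above 0, 19899 were matched and ranked. Transcripts of GENCODE were searched for shared stretches of 80 bases, and RefSeq promoter windows (GRCm38.p6) for motifs on both strands. Percentile and motif functions were tested on simulated data. Python 3.11.15, pandas 2.3.3, numpy 2.4.6 and Biopython 1.88 were used. The 34 genes, their paralogs and the other lists were chosen with earlier results of these data known. Every one of the 34 genes and its paralogs is named, and of the other lists the 4 genes with the highest levels per kb and those at 0, except a few genes that are not reported here. A few further genes were named after their values were seen (*Eef1a1*, *Gata1*, *Flvcr1*, *Xk* and *Epo*). Alternatives were another length, another rank and another window.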

Additional observations from a re-analysis of the deposited data

How the results depend on the processing

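With the length of the coding sequence in place of the longest transcript, the median level of the 33 genes was 928.5 in place of 355 per kb, as the divisor is shorter by construction. Without the 10 genes with the highest means, which include *Hbb-y* and *Hba-x*, the share of the erythroid genes in the summed means was 0.374% in place of 1.17%. The ratio of *Ank1* to *Ank2* was 1.36 per kb and 0.798 with no length, the only one of 96 paralog ratios under an alternative that turned. Of these 96, 34 moved by over 1.5 times and 61 did not. The median percentile lay between 66.4 (only genes with a mean of at least 10) and 74.5 (rank of the mean itself), and 8 or 9 genes were at or above the 90th percentile in each setting. These were not always the same genes. By rank of the mean, *Alas2* (percentile 88.0) and *Urod* (81.9) fell below it and *Slc25a37* (95.0) rose above it. Among genes with a mean of at least 10, *Epb41* fell just below it (89.99). Counted only before the start site, AGATAA occurred in 34.6%, CACCC in 76.9% and TATAAA in 19.2% of the 26 genes. Over all genes with a window, these shares were 11.4%, 54.5% and 14.3%. The use of the transcript with the longest coding sequence and the search for shared stretches were chosen after seeing the data. No symbol occurred in more than 1 row, so no alternative for duplicate symbols was needed, and the identity of the globin proteins was not run. No paired analysis was possible because the values come from no test and pool all embryos, and for the same reason no embryo could be left out. Depth limits these means by an amount that is unknown.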
